A study of Mus musculus with 27 samples.

Results

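Pressure overload was compared with sham surgery in mouse hearts taken 28 days after the operation, at a time when wall thickening and scarring from transverse aortic constriction (TAC) are usually established. TAC ties the aorta between its branches so that the left ventricle pumps against a narrowed outlet. The comparison uses the 3 arrays of the group TAC_vehicle_d28 and the 3 arrays of sham_vehicle_d28, which are 6 of the 27 arrays of the series, and covers 19937 genes with 1 probe set each. Per the labels the animals were C57Bl/6J male littermates of 10 to 12 weeks, and hearts of both groups had received vehicle injections, so sham here means surgery without constriction plus vehicle. The other 21 arrays are sham, TAC and TAC with JQ1 (a BET bromodomain inhibitor) at other days, and TAC with JQ1 at day 28. RNA came from pieces of whole heart tissue, so the values mix cardiomyocytes with fibroblasts, vessels and blood-borne cells, and fewer cells of a type and less RNA per cell cannot be told apart. The labels do not name the animal or the chamber behind each array, and the p-values therefore measure only the spread between these arrays, which may be technical.

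The heart responds to a sustained pressure load with enlargement of its muscle cells, which switch on natriuretic peptides and contractile genes of the fetal heart and run down genes of fat burning. Fibroblasts of the tissue make collagen and the proteins that organise it, under the influence of the TGF-beta family and related signals. Macrophages are the main immune cells of the heart, both in health and in the weeks after an overload, and ion channel genes of the muscle cells often decline in the overloaded ventricle.

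Levels are given on the log2 scale of the deposited values, differences are TAC minus sham ± the standard error of a moderated linear model (limma) fitted to all 27 arrays, and a gene is called when its Benjamini-Hochberg adjusted p over all genes is under 0.05. A difference of 1 on this scale is a doubling of the array signal. Apart from the percentiles given next, no probe set's level is set against another's. Cardiomyocyte genes such as Ttn, Actc1, Myh6 and Ryr2 lay between percentiles 99.4 and 100 of all genes. At day 28, 3013 genes were called (15.1% of those tested), 1621 higher (8.13%) and 1392 lower (6.98%) after TAC. With each array centred on the median of the genes tested, a setting chosen after seeing the data, the split was 1348 higher and 1739 lower, and after quantile normalization, a planned setting, it was 1538 higher and 1802 lower. At 1.5-fold or more the picture was one-sided, with 556 genes higher (2.79%) and 113 lower (0.567%). The arrays of the groups did not overlap for 37.7% of genes. The median difference of all genes was -0.05, and 5 in 100 genes lay above 0.44. Without TAC replicate 3 only 1794 genes were called, 1003 higher and 791 lower, and leaving out any other array of these 6 gave between 2102 and 2817. Array medians of the series lay between 6.95 and 7.04.

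The genes that rose furthest included several of the extracellular matrix. Thrombospondin-4 (Thbs4), a matrix glycoprotein of stressed heart and tendon, had levels of 7.47, 7.46 and 7.77 in the sham arrays and 11.23, 9.16 and 11.30 after TAC, a difference of 3.00 ± 0.35 or 7.99-fold (limma adjusted p = 3.46e-06). Periostin (Postn), a marker of activated fibroblasts, went from 9.23, 9.57 and 9.90 to 12.50, 11.71 and 12.77, which is 6.78-fold. Timp1, which blocks matrix-cutting metalloproteinases, went from 6.47, 7.23 and 7.25 to 9.58, 9.46 and 10.08, or 6.59-fold. The largest rises were taken among called genes whose groups do not overlap, so every TAC array was above every sham array by that choice. In Thbs4, Postn and Timp1 the array of TAC replicate 2 was the lowest of the 3 TAC arrays. The rest of the 12 largest rises were Cilp, Nox4, Serpina3n, Mfap5, Fmod, Mfap4, Pamr1, Lox and Itgbl1, with differences from 2.06 to 2.68. They include proteins of the collagen and elastic networks, a protease inhibitor of the acute phase (Serpina3n) and the hydrogen peroxide-producing oxidase Nox4.

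**Figure D1:**
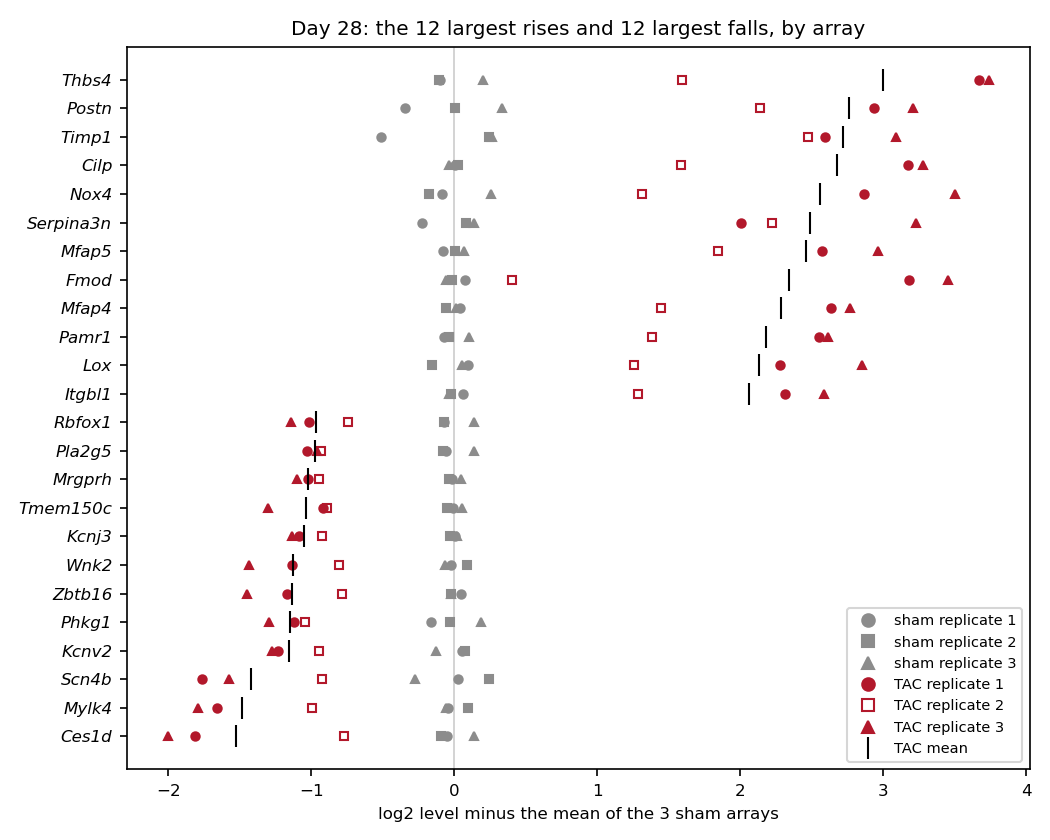
Levels of the 12 genes with the largest rises and the 12 with the largest falls at day 28, each array as a point on the log2 scale relative to the mean of the 3 sham arrays of that gene. Grey points are sham, red points TAC, open squares TAC replicate 2 and black ticks the TAC mean. Only called genes whose groups do not overlap were eligible, so the TAC points lie clear of the sham points by that choice. The open square is the TAC array closest to sham in 11 of the 12 rises.

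Among the genes that fell furthest, Ces1d, a carboxylesterase that hydrolyses lipids, fell from 10.68, 10.64 and 10.87 to 8.92, 9.96 and 8.73, a difference of -1.53 ± 0.25 (limma adjusted p = 0.000137). Mylk4, a myosin light chain kinase gene of muscle, fell from 11.25, 11.39 and 11.23 to 9.63, 10.30 and 9.50 (difference -1.48 ± 0.26). Scn4b, an auxiliary subunit of cardiac sodium channels, fell from 8.45, 8.67 and 8.15 to 6.66, 7.50 and 6.85 (difference -1.42 ± 0.19). Sham and TAC levels did not overlap in these 3 genes, which the choice of the largest falls required. TAC replicate 2 was again the TAC array nearest to sham. The other 9 of the 12 largest falls were Kcnv2, Phkg1, Zbtb16, Wnk2, Kcnj3, Tmem150c, Mrgprh, Pla2g5 and Rbfox1, between -1.15 and -0.97. They hold a pair of potassium channel genes, a glycogen phosphorylase kinase subunit (Phkg1), the kinase gene Wnk2 and the splicing regulator Rbfox1.

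Of 29 measured genes of the natriuretic peptide and fetal stress list, 11 rose and 0 fell, against 8.13% and 6.98% of all genes, with a median difference of 0.29. Nppa encodes atrial natriuretic peptide, which lowers blood volume, and stood at 11.62, 11.95 and 11.79 in sham and 13.55, 13.31 and 13.57 after TAC (1.69 ± 0.18, limma adjusted p = 1.68e-06). Nppb, its ventricular counterpart, stood at 10.52, 11.05 and 10.92 against 12.56, 12.57 and 12.31 (1.65 ± 0.32). Myh7, the slow myosin heavy chain of the fetal ventricle, stood at 9.81, 9.90 and 10.05 against 11.63, 11.59 and 12.15 (1.87 ± 0.22). The groups did not overlap in these genes, and TAC replicate 2 was the lowest TAC array in Nppa and Myh7 and the highest in Nppb. Skeletal alpha-actin (Acta1), which the fetal heart also uses, rose by 1.62 ± 0.29, and Ccn2, a matricellular growth regulator, by 1.61 ± 0.19. Smaller rises were seen in the stretch-responsive Ankrd1 (0.56 ± 0.07), the calcineurin regulator Rcan1 (0.70 ± 0.18) and the sarcomere protein gene Mybpc2 (0.78 ± 0.18). The natriuretic peptide clearance receptor Npr3 was at 9.01, 8.78 and 8.88 in sham and 9.10, 9.08 and 9.25 after TAC, which was not called (0.26 ± 0.12, limma adjusted p = 0.155).

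Promoters of 5 members of this list that rose are shown because they hold the MCAT element, GGAATG or its reverse complement CATTCC. It is a binding element of TEAD factors known from promoters of muscle genes. The windows hold the 250 bases before the annotated start from RefSeq (GRCm38.p6), written 5′ to 3′ along the gene, with the element in capitals. They lie at chr14:54994627-54994876 (minus strand) for Myh7, chr4:147985650-147985899 (plus strand) for Nppb, chr8:123894776-123895025 (minus strand) for Acta1, chr19:36119845-36120094 (minus strand) for Ankrd1 and chr7:44524670-44524919 (minus strand) for Mybpc2.
Myh7: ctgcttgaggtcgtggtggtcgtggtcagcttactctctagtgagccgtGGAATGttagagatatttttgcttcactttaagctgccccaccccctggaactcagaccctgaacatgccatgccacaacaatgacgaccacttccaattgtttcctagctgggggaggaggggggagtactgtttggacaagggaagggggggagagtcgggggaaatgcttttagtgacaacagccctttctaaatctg
Nppb: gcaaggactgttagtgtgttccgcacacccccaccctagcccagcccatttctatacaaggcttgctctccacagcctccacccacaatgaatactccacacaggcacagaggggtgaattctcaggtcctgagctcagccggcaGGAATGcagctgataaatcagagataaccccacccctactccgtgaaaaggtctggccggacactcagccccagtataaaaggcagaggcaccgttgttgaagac
Acta1: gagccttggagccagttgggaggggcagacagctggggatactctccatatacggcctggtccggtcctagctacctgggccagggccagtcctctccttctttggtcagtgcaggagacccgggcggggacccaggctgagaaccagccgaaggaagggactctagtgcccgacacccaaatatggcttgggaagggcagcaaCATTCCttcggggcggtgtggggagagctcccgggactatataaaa
Ankrd1: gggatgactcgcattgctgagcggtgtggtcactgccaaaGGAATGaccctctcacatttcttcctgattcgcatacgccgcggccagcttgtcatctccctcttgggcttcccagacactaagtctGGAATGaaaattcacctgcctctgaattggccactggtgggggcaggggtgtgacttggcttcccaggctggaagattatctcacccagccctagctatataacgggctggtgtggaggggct
Mybpc2: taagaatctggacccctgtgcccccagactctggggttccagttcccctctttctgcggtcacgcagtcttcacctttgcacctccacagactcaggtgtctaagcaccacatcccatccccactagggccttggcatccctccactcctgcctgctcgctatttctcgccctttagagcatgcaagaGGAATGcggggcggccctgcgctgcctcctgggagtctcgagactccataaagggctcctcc
Of the 11 members called higher 10 had a promoter in the RefSeq table and 5 of these (50.0%) held the element on either strand, against 12.6% of 27025 promoters of all genes. The copy nearest to the start lies 46 bases before it in Acta1, 62 in Mybpc2, 105 in Nppb, 123 in Ankrd1 and 201 in Myh7, counted from the first base of the element. The same search was made for 3 other elements. The AP-1 element TGANTCA was in 1 of 14 promoters of matricellular genes that rose (6.87% of all promoters), the PU.1 element GAGGAAGT in 1 of 18 of macrophage markers that rose (2.44%), and the ERR element TNAAGGTCA in 0 of 23 of tricarboxylic acid cycle genes that fell (1.14%). A match describes letters in a window and is not a binding site, and the lack of one says nothing about the factor.

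Of 23 measured genes of the adult sarcomere 0 rose and 4 fell (17.4%, against 6.98% of all genes), with a median of -0.08. Myh6, the fast myosin heavy chain of the adult mouse ventricle, went from 13.55, 13.58 and 13.57 to 13.31, 13.34 and 13.27, a fall of 1.20-fold (limma adjusted p = 0.000596). The TAC arrays were below the sham arrays, but the step was small beside the rise of Myh7. Mylk3, the cardiac myosin light chain kinase, fell by 0.56 ± 0.09 and Mylk4 by 1.48 ± 0.26. Tcap, the cap protein of titin, differed by -0.38 ± 0.10 (limma adjusted p = 0.0131) and lost its call without TAC replicate 1.

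Of 22 collagen chains 11 rose and 0 fell (median 0.38), against 8.13% and 6.98% of all genes. The fibrillar chains Col5a1 (0.17), Col5a3 (-0.08) and Col11a1 (-0.10) were not called. Col3a1, the chain of pliable fibres, was at 8.20, 8.26 and 8.32 in sham and 9.52, 9.04 and 9.76 after TAC (1.18 ± 0.18, limma adjusted p = 8.68e-05). Col1a1, a chain of the stiff fibres of scar, was at 8.83, 8.75 and 8.68 against 9.73, 9.18 and 9.71 (0.79 ± 0.15). Both genes rose in all TAC arrays, least in TAC replicate 2. The largest rise of the list was in the short-chain collagen gene Col8a1 (1.86 ± 0.16), followed by the fibril-associated Col14a1 (1.62 ± 0.22) and Col12a1 (1.56 ± 0.26). Col4a2, of the basement membrane network, was not called at 0.18 ± 0.09 (limma adjusted p = 0.223). Of 20 collagen processing genes 10 rose and 0 fell (median 0.37), among them the cross-linking enzymes Loxl1 (1.36 ± 0.10) and Lox (2.13 ± 0.38) and the proteinase enhancer Pcolce (1.15 ± 0.15).

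Matricellular proteins and glycoproteins tune how cells sit in the matrix. Of 30 members 22 were called higher and 0 lower, against 8.13% and 6.98% of all genes, with a median of 0.79. Besides Thbs4 and Postn these were led by Cilp (2.68 ± 0.28), a cartilage intermediate layer protein also made by cardiac fibroblasts, and by Mfap4 (2.28 ± 0.23). Fibronectin (Fn1), the scaffold on which collagen is laid, rose by 1.16 ± 0.23, and Fstl1 by 1.58 ± 0.13. Tenascin-C (Tnc), a glycoprotein of early repair, was at 5.95, 6.03 and 6.19 in sham and 6.89, 6.72 and 6.90 after TAC. Its groups did not overlap, yet it was not called (0.78 ± 0.37, limma adjusted p = 0.169), the standard error being set by all 27 arrays. Tnc was called with only the 9 arrays of day 28 (limma adjusted p = 0.00106) or only the 6 compared (0.000856). Small proteoglycans and hyaluronan genes had 14 of 26 members higher and 2 lower (median 0.58; 0 lower without TAC replicate 3 or sham replicate 3, and 1 without TAC replicate 1, sham replicate 1 or sham replicate 2), with the collagen-binding Bgn at 11.66, 11.77 and 11.75 against 12.81, 12.56 and 12.85 (1.01 ± 0.08, limma adjusted p = 3.28e-08). Bgn was tight in both groups, whereas fibromodulin (Fmod), of the same family, was at 6.21, 6.12 and 6.08 in sham and 9.32, 6.54 and 9.59 after TAC. Fmod was thus far above sham in TAC replicates 1 and 3 and only just above it in TAC replicate 2.

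Of 14 elastic fibre genes 7 rose and 2 fell, against 8.13% and 6.98% of all genes. The count that fell was 1 without TAC replicate 1, TAC replicate 3 or any 1 sham array. The microfibril proteins Mfap5 (2.46 ± 0.18) and Mfap2 (0.75 ± 0.10) and the elastic fibre assembler Fbln5 (0.87 ± 0.12) were among those that rose. Among 31 matrix proteases and their inhibitors 16 rose and 1 fell (median 0.33), and the count held proteases and inhibitors alike. Mmp2, a gelatinase, was at 10.50, 10.47 and 10.64 in sham and 12.11, 11.38 and 12.16 after TAC (1.35 ± 0.16), and Timp2, which binds it, rose by 0.81 ± 0.07. Timp4, the inhibitor found mainly in heart muscle, was at 10.52, 10.47 and 10.39 against 10.02, 10.54 and 9.12 (-0.56 ± 0.34, limma adjusted p = 0.292). Its TAC arrays ran from no change to a fall of more than 1 unit and overlapped with sham. The serine protease gene Htra1 was the member that fell (-0.56 ± 0.09).

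Genes known best from cartilage and tendon had 12 of 29 members rising and 0 falling, against 8.13% and 6.98% of all genes. Their median was -0.02. Col2a1, Col9a1 and Acan, of hyaline cartilage, were not called. Comp, a cartilage matrix protein, was at 6.78, 6.81 and 6.92 in sham and 9.05, 7.03 and 9.58 after TAC (1.72 ± 0.34, limma adjusted p = 0.00103), and with only these 6 arrays in the fit it was not called (limma adjusted p = 0.0541). TAC replicate 2 lay just above the highest sham array, and the other TAC arrays far above it. Ccn5 (1.39 ± 0.12) and the calcification inhibitor Mgp (1.53 ± 0.22) also rose.

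Of 39 genes of TGF-beta, BMP and activin signalling 8 rose (20.5%, against 8.13% of all genes) and 2 fell (median 0.09). The 2 that fell became 0 without any 1 sham array or TAC replicate 3 and 1 without TAC replicate 1 or 2. Among the ligands, Tgfb3 was at 8.59, 8.61 and 8.70 against 9.94, 9.03 and 9.97 (1.02 ± 0.17, limma adjusted p = 0.000175) and Tgfb2 at 7.63, 7.78 and 7.85 against 8.70, 8.42 and 8.74 (0.87 ± 0.16). Tgfb1, the best known ligand, was at 8.58, 8.59 and 8.59 against 8.92, 8.76 and 8.69. All its TAC arrays were above sham, but the difference of 0.20 ± 0.09 was not called (limma adjusted p = 0.126). The receptor gene Tgfbr2 rose by 0.39 ± 0.07, the ligand Bmp4 by 0.77 ± 0.12 and the extracellular BMP antagonist gene Nbl1 by 0.79 ± 0.13.

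In the Wnt list 9 of 38 genes rose and 3 fell, against 8.13% and 6.98% of all genes, with a median of -0.05. Secreted antagonists were called in both directions. Frzb was at 6.84, 7.10 and 6.99 in sham and 9.23, 8.50 and 9.36 after TAC (2.06 ± 0.18, limma adjusted p = 1.4e-07). Sfrp2 rose by 1.93 ± 0.34 and Sfrp1 by 1.55 ± 0.19, and the intracellular antagonist gene Nkd2 by 0.63 ± 0.11. No TAC array fell within the sham range of Frzb. The members that fell were the secreted antagonists Wif1 (-0.44) and Sfrp5 (-0.35) and the ligand Wnt5a (-0.33), and without TAC replicate 2 only 1 member was lower.

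Fibroblast markers were, of the 54 lists, the one with the highest share called higher. Of 24 markers 19 were higher and 0 lower, against 8.13% and 6.98% of all genes, with a median of 0.66. Pi16, which marks a resting perivascular kind of fibroblast, was at 8.85, 8.97 and 8.85 in sham and 10.31, 10.10 and 10.57 after TAC (1.44 ± 0.12, limma adjusted p = 5.44e-08). Pdgfra, the receptor that defines the lineage, was at 9.24, 9.15 and 9.30 against 9.87, 9.64 and 9.85 (0.56 ± 0.13), and the lineage factor Tcf21 at 7.36, 7.59 and 7.44 against 8.15, 7.93 and 8.31 (0.67 ± 0.13). The groups did not overlap in these 3 genes. Meox1, a transcription factor of activated fibroblasts, rose by 1.47 ± 0.21. Summed over the 24 markers, the mean level relative to the 6-array mean ran from -0.43 to -0.35 in sham and was 0.46, 0.14 and 0.55 in TAC replicates 1, 2 and 3, and the part of these markers in the matrix results was not tested.

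**Figure D2:**
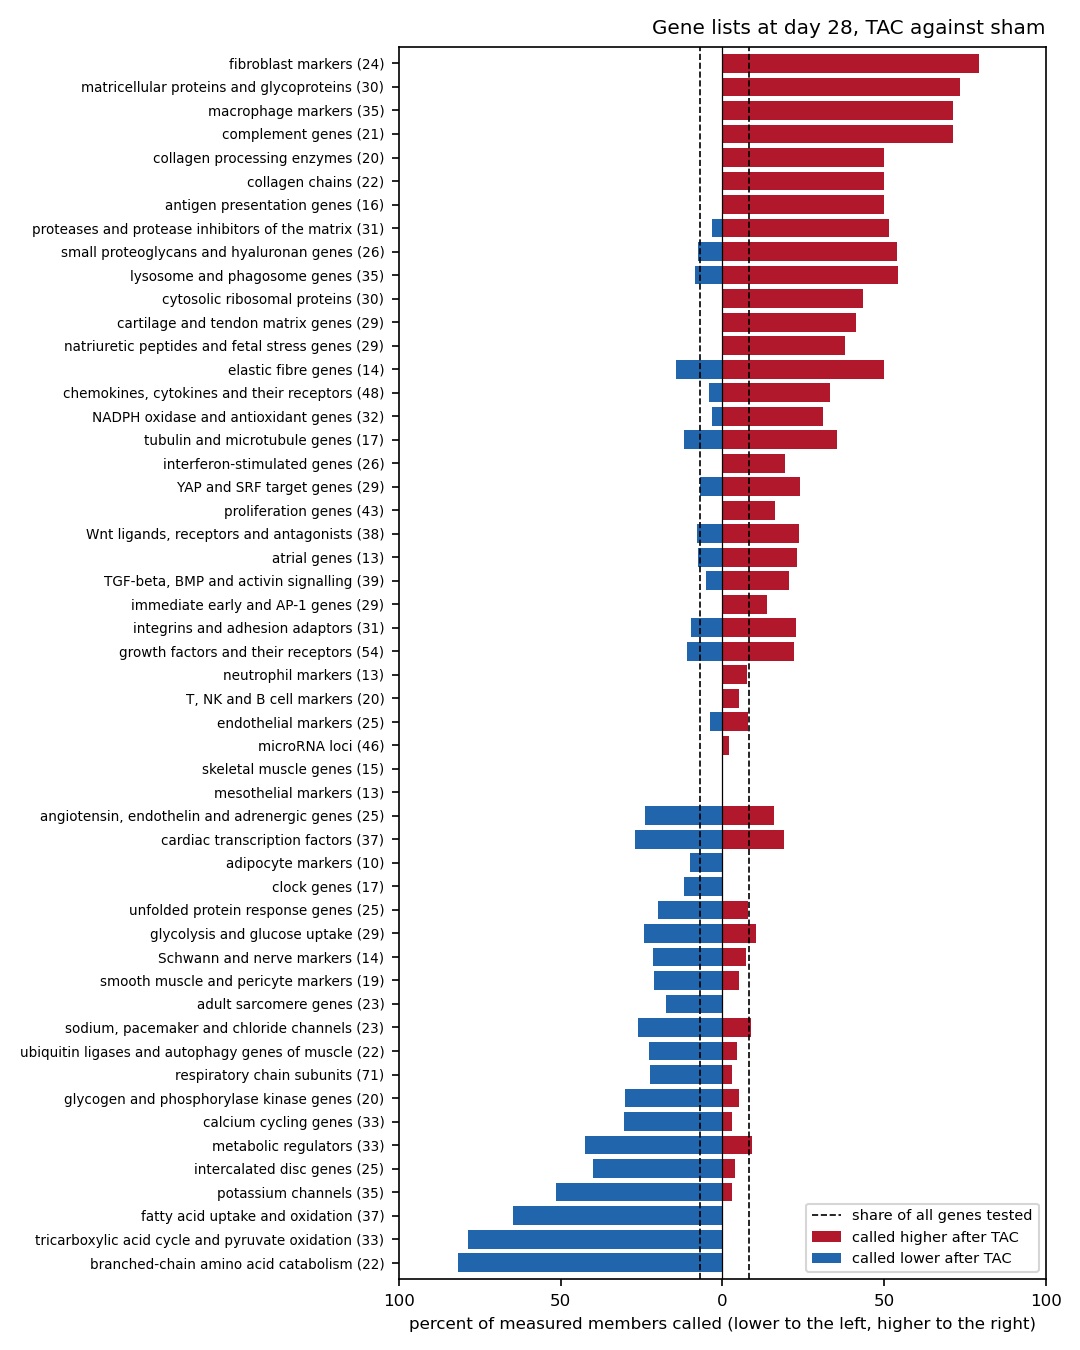
Share of each gene list called at day 28, as a percent of its measured members (number in brackets), lower after TAC to the left in blue and higher to the right in red, for lists with 10 or more measured members. Dashed lines mark the shares of all genes tested, 6.98% lower and 8.13% higher. Fibroblast, matricellular, macrophage and complement lists reach furthest to the right, and branched-chain amino acid, tricarboxylic acid cycle and fatty acid lists furthest to the left.

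Of 35 macrophage markers 25 rose and 0 fell, against 8.13% and 6.98% of all genes, with a median of 0.85. Fcer1g, the signalling chain of Fc receptors, was at 8.44, 8.52 and 8.70 in sham and 9.93, 10.03 and 10.43 after TAC (1.57 ± 0.16, limma adjusted p = 9.12e-07). Csf1r, the receptor on which macrophages depend, was at 9.02, 9.07 and 8.99 against 9.77, 10.00 and 9.94 (0.88 ± 0.12), and the classical marker Adgre1 at 8.01, 8.15 and 8.16 against 9.52, 9.32 and 9.79 (1.44 ± 0.24). In all 3 genes the lowest TAC array was above the highest sham array. Markers of resident cardiac macrophages gave mixed values. Mrc1 rose (0.97 ± 0.16). Lyve1 was at 9.29, 9.69 and 9.51 against 9.72, 10.30 and 9.79 (0.44 ± 0.16, limma adjusted p = 0.0621), and Timd4 at 6.91, 6.83 and 6.91 against 6.65, 7.23 and 6.53 (-0.08 ± 0.12). For Cd163, a scavenger receptor, sham was at 7.75, 7.51 and 7.62 and TAC at 7.56, 8.69 and 7.86. Neither Timd4 nor Cd163 was called, and in Lyve1, Timd4 and Cd163 TAC replicate 2 was the highest of the 6 arrays.

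Of 21 complement genes 15 rose and 0 fell, against 8.13% and 6.98% of all genes, with a median of 0.77. C1qa, C1qb and C1qc, the recognition chains of the classical pathway, rose by 1.15 ± 0.12, 1.15 ± 0.12 and 1.29 ± 0.13. C4b, a later component, was at 7.36, 7.52 and 7.40 in sham and 7.86, 8.82 and 8.50 after TAC (0.97 ± 0.16), and the inhibitor Serping1 rose by 1.08 ± 0.12. C4b was clear of sham in all TAC arrays and lowest in TAC replicate 1. Of 35 lysosome and phagosome genes 19 rose and 3 fell, with the collagen-digesting protease Ctsk at 1.29 ± 0.20 and progranulin (Grn) at 0.50 ± 0.06, and without TAC replicate 3 the count of those that rose was 12.

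Antigen presentation genes had 8 of 16 members called higher and 0 lower, against 8.13% and 6.98% of all genes. The higher count dropped to 3 without sham replicate 1, 4 without TAC replicate 1 or 2 and 5 without sham replicate 2 or 3. The co-stimulator Cd86 was at 6.28, 6.34 and 6.29 in sham and 7.14, 6.92 and 7.20 after TAC (0.79 ± 0.11, limma adjusted p = 3.51e-05), and the class I light chain B2m rose by 0.51 ± 0.09. The class II gene H2-Aa was at 9.59, 9.58 and 9.67 against 10.71, 10.96 and 10.86. The groups of H2-Aa at day 28 were far apart, but its call (1.23 ± 0.38, limma adjusted p = 0.0298) was lost when any of the 6 arrays was left out.

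Among 48 chemokine, cytokine and receptor genes (median 0.30) 16 rose (33.3%) and 2 fell (4.17%), against 8.13% and 6.98% of all genes. The count that rose was 5 without TAC replicate 3, 9 without sham replicate 1 and 10 without sham replicate 2. Ccl8, a monocyte attractant, was at 5.98, 5.90 and 6.21 in sham and 6.65, 7.95 and 7.91 after TAC (1.47 ± 0.23, limma adjusted p = 0.000106). Cxcl16 rose by 1.02 ± 0.16 and the TWEAK receptor Tnfrsf12a by 1.13 ± 0.19, whereas Il15 fell by 0.70 ± 0.11. Ccl2, the prototype monocyte attractant, was at 7.41, 7.30 and 7.37 against 7.55, 8.20 and 7.85 and was not called (0.50 ± 0.43). Il6 was at 3.70, 3.87 and 3.44 against 4.03, 4.08 and 4.77, near the low end of the scale. Its call (limma adjusted p = 0.0392) was lost without sham replicate 1, sham replicate 3 or TAC replicate 3. Il6 was also not called with only the 9 arrays of day 28 (limma adjusted p = 0.0577) or only the 6 compared (0.054). Of 26 interferon-stimulated genes 5 were called higher (19.2%), with Ifi27l2a (0.99 ± 0.20) and Cxcl10 (0.66 ± 0.12) as examples. Without TAC replicate 1, TAC replicate 2 or any single sham array 3 were called. The count was 15 with only the 6 arrays compared, 9 with array weights, 8 without the dimmest genes and 2 with only the 9 arrays of day 28.

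Markers of other cell types were read beside the shares of all genes, 8.13% higher and 6.98% lower. Neutrophil markers had 1 of 13 called (Csf3r) and T, NK and B cell markers 1 of 20 (Thy1). The call of Csf3r was lost without sham replicate 1, sham replicate 3, TAC replicate 2 or TAC replicate 3. That of Thy1 was lost without sham replicate 1 or TAC replicate 1. None of 8 mast cell, 13 mesothelial and 3 red cell genes was called. Only 3 of the 13 red cell names were measured, and 12 of the 13 mesothelial differences were negative (median -0.14). Cd3e, which defines T cells, was at 6.99, 6.93 and 6.85 in sham and 7.03, 6.97 and 6.90 after TAC. Of 25 endothelial markers 2 rose (Plvap and Emcn) and 1, Flt1, fell, with a median of 0.17 and 18 positive differences. The call of Flt1 was lost without sham replicate 2 or TAC replicate 3, and with only the 9 arrays of day 28. The count that rose was 8 with array weights and 5 with only the 6 arrays compared. Of 19 smooth muscle and pericyte markers 1 rose and 4 fell (21.1%), led by Abcc9 (-0.59 ± 0.11), a channel subunit that cardiomyocytes also make, and 2 fell without TAC replicate 3. Of 14 Schwann cell and nerve markers 3 fell (21.4%) and 1 rose, with 12 of 14 differences negative and a median of -0.20. Kcna1 fell by 0.65 ± 0.08, Gfra3 by 0.43 and Erbb3 by 0.32, and Scn7a rose by 0.81 ± 0.13. The call of Erbb3 was lost without sham replicate 1, sham replicate 2, TAC replicate 1 or TAC replicate 3. It was also lost with only the 9 arrays of day 28. None of 15 skeletal muscle genes was called, but TAC replicate 3 carried more of some of them than the other arrays. Myh2, a fast skeletal myosin, was at 8.32 there and between 6.45 and 6.91 in the other 5 arrays, and Atp2a1 was at 8.61 against 6.98 to 7.44.

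Of 35 measured potassium channel genes 18 fell, 1 rose and 16 were not called, against 6.98% and 8.13% of all genes (median -0.24). Kcnj3 and Kcnj5 encode the subunits of the acetylcholine-gated channel. Kcnj3 was at 10.08, 10.05 and 10.10 in sham and 8.99, 9.15 and 8.94 after TAC (-1.05 ± 0.12, limma adjusted p = 3.46e-06), and Kcnj5 at 9.79, 9.84 and 9.75 against 8.96, 9.13 and 9.08 (-0.73 ± 0.07). The arrays of a group lay close together in both genes, and the groups did not overlap. Kcnd2, which carries the fast transient outward current of the mouse ventricle, fell by 0.91 ± 0.20, Kcnh2 of the rapid delayed rectifier fell by 0.59 ± 0.08 and Kcnj2 of the inward rectifier by 0.58 ± 0.10. Kcnj11, the pore of the ATP-sensitive channel, fell by 0.54 ± 0.07.

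Of 23 sodium, pacemaker and chloride channel genes and their partners 6 fell (26.1%) and 2 rose (8.7%), against 6.98% and 8.13% of all genes. The pacemaker channel gene Hcn4 was at 7.83, 7.76 and 7.74 in sham and 7.27, 7.30 and 7.27 after TAC (-0.49 ± 0.08, limma adjusted p = 0.000123), and Fxyd6, a modulator of the sodium pump, rose by 1.02 ± 0.15. In the calcium cycle 10 of 33 genes fell and 1 rose (median -0.14). The release channel Ryr2 was at 12.68 in each sham array and at 12.25, 12.29 and 12.17 after TAC (-0.45 ± 0.07, limma adjusted p = 0.000173). The calcium-binding Hrc fell by 0.64 ± 0.09 and the membrane-tethering Jph2 by 0.52 ± 0.10. The calcium pump gene Atp2a2 stood at 13.69, 13.71 and 13.74 against 13.52, 13.59 and 13.45. Its difference of -0.19 ± 0.05 lost its call without sham replicate 3 or TAC replicate 3. Atp2a2 was also not called with only the 9 arrays of day 28 (limma adjusted p = 0.117) or only the 6 compared (0.0845). Its inhibitor Pln was at 13.73, 13.74 and 13.73 against 13.59, 13.62 and 13.65 and was not called (limma adjusted p = 0.139). Of 25 intercalated disc genes 10 fell and 1 rose, with the desmosomal cadherin Dsg2 at -0.71 ± 0.08 and desmoplakin (Dsp) at -0.44 ± 0.08, while the gap junction gene Gja1 was at -0.03 ± 0.16.

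Of 37 genes of fatty acid uptake and oxidation 24 fell and 0 rose, against 6.98% and 8.13% of all genes (median -0.33). Differences of the list ran from -1.53, the value of Ces1d, to 0.14. The uptake gene Slc27a1 was at 10.81, 10.77 and 10.81 in sham and 10.09, 10.08 and 10.04 after TAC (-0.72 ± 0.11, limma adjusted p = 6e-05). Acadvl, which opens the oxidation of long chains, was at 11.23, 11.23 and 11.22 against 10.75, 10.84 and 10.76 (-0.44 ± 0.08), and Hadha, of the trifunctional enzyme, at 12.79, 12.77 and 12.74 against 12.34, 12.48 and 12.38 (-0.36 ± 0.06). The spread within a group was far smaller than the step between groups in these genes. Pdk4, a kinase that inhibits pyruvate dehydrogenase, ranged from 11.13 to 11.85 in sham and from 11.32 to 11.85 after TAC. The groups thus overlapped in full (0.10 ± 0.31).

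The tricarboxylic acid cycle and pyruvate oxidation list had 26 of 33 members lower and 0 higher (median -0.29), and the count that fell was 16 without TAC replicate 3, 17 without sham replicate 1 and 15 with only the 9 arrays of day 28. Sdha, of succinate dehydrogenase, was at 12.998, 12.93 and 12.97 in sham and 12.50, 12.62 and 12.54 after TAC (-0.41 ± 0.06, limma adjusted p = 2.4e-05), and the pyruvate dehydrogenase phosphatase Pdp2 fell by 0.89 ± 0.12. Of 71 respiratory chain subunits 16 fell (22.5%, against 6.98% of all genes) and 2 rose, with a median of -0.07. The count that fell was 10 without TAC replicate 3 and 8 with only the 9 arrays of day 28 or only the 6 arrays compared. Ndufs1 of complex I was the member with the smallest p (-0.43 ± 0.06).

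Branched-chain amino acid breakdown had, of the 54 lists, the highest share of falling members, 18 of 22 with 0 rising and a median of -0.42. Ppm1k, the phosphatase that activates the branched-chain ketoacid dehydrogenase, was at 10.36, 10.16 and 10.41 in sham and 9.33, 9.61 and 9.64 after TAC (-0.78 ± 0.11, limma adjusted p = 2.24e-05). Bckdhb, of that dehydrogenase, fell by 0.63 ± 0.11 and Ivd, of the leucine branch, by 0.64 ± 0.09. Of 33 metabolic regulators 14 fell (42.4%) and 3 rose (9.09%), against 6.98% and 8.13% of all genes. The 3 became 0 without TAC replicate 3 or sham replicate 1 and 1 without TAC replicate 1, sham replicate 2 or sham replicate 3. Ppara, the lipid-sensing receptor of fatty acid oxidation, was at 10.21, 10.34 and 10.22 against 9.57, 9.78 and 9.61 (-0.60 ± 0.11), and the receptors Ppard (-0.53 ± 0.07), Rxra (-0.47 ± 0.07) and Esrra (-0.39 ± 0.07) fell too. The coactivator Ppargc1a differed by -0.29 ± 0.08 and lost its call without sham replicate 3. Glycolysis had 7 lower (24.1%) and 3 higher (10.3%) of 29. The rising shares of both lists were near that of all genes. The 3 rising glycolysis genes became 1 without TAC replicate 3, sham replicate 1 or sham replicate 3. The hexokinase gene Hk2 fell by 0.77 ± 0.18 and Pfkp, a phosphofructokinase of non-muscle cells, rose by 0.68 ± 0.14.

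Smaller lists added to these, read beside the shares of all genes, 8.13% higher and 6.98% lower. Of 54 growth factor and receptor genes 12 rose and 6 fell, and the fall count was 3 without TAC replicate 3. Igf1 was at 7.78, 7.60 and 7.74 in sham and 9.06, 8.61 and 9.23 after TAC (1.26 ± 0.17, limma adjusted p = 1.66e-05), Igfbp7 rose by 0.92 ± 0.09, and the endothelial stabiliser Angpt1 fell by 0.79 ± 0.18. NADPH oxidase and antioxidant genes had 10 of 32 higher and 1 lower. Nox4 went from 6.10, 6.01 and 6.45 to 9.05, 7.50 and 9.69, and the antioxidant enzyme Gpx1 from 9.42, 9.64 and 9.71 to 10.42, 10.42 and 10.52. The TAC arrays lay far apart in Nox4 and close together in Gpx1, and both genes were called. The angiotensin converting enzyme gene Ace rose by 0.84 ± 0.09 and the adrenergic receptor gene Adra1b fell by 0.52 ± 0.08. Of 37 transcription factors of the heart 7 rose, with Runx1 at 1.04 ± 0.14, and 10 fell, with Hdac4 at -0.47 ± 0.08 and Hopx at -0.52 ± 0.12, and 5 fell without TAC replicate 3.

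Ribosomal protein genes had 13 of 30 members higher and 0 lower, against 8.13% and 6.98% of all genes, with Rps20 the furthest at 0.46 ± 0.08. The count was 8 without TAC replicate 3 or with only the 9 arrays of day 28, and 7 without sham replicate 1. Small nucleolar RNA loci, which guide the chemical marking of ribosomal RNA, had 27 of 52 called higher and 0 lower with a median of 0.48, led by Snord57 at 10.55, 10.55 and 11.03 in sham and 11.75, 11.71 and 12.06 after TAC (1.13 ± 0.16, limma adjusted p = 2.89e-05). These loci lie within other genes, and a probe set cannot tell the small RNA from its host transcript. Of 300 microRNA loci, taken by their symbols, 10 were higher and 2 lower, a smaller share than among all genes. The higher ones include the host gene Mir100hg (0.69 ± 0.12). The same limit holds for microRNA loci that lie within other genes. Of 43 proliferation genes 7 rose (16.3%), with Tyms at 0.67 ± 0.13 and Ube2c at 0.64 ± 0.13. That count was 3 without TAC replicate 3 or sham replicate 1, 4 without TAC replicate 1, and 16 with array weights or with only the 9 arrays of day 28.

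The 3 TAC arrays did not respond alike. Of the 556 genes at least 1.5-fold higher, TAC replicate 2 was the TAC array nearest to the sham mean in 309, TAC replicate 1 in 211 and TAC replicate 3 in 36. The order differed between gene groups. For collagen chains at least 1.5-fold higher the nearest array was TAC replicate 2 in 10 of 10, for collagen processing genes in 6 of 6, for the cartilage and tendon list in 9 of 9 and for fibroblast markers in 12 of 14. For macrophage markers it was TAC replicate 1 in 17 of 24 and TAC replicate 2 in 7, and for complement genes TAC replicate 1 in 9 of 12. As a mean over each list relative to its 6-array mean, matricellular genes were at 0.61, 0.15 and 0.67 in TAC replicates 1, 2 and 3, macrophage markers at 0.26, 0.46 and 0.55, and fetal stress genes at 0.25, 0.26 and 0.25. The TAC arrays were level in the stress genes, and their order differed between matrix and macrophage genes. With 3 arrays a group this is a description of the arrays and was not tested.

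**Figure D3:**
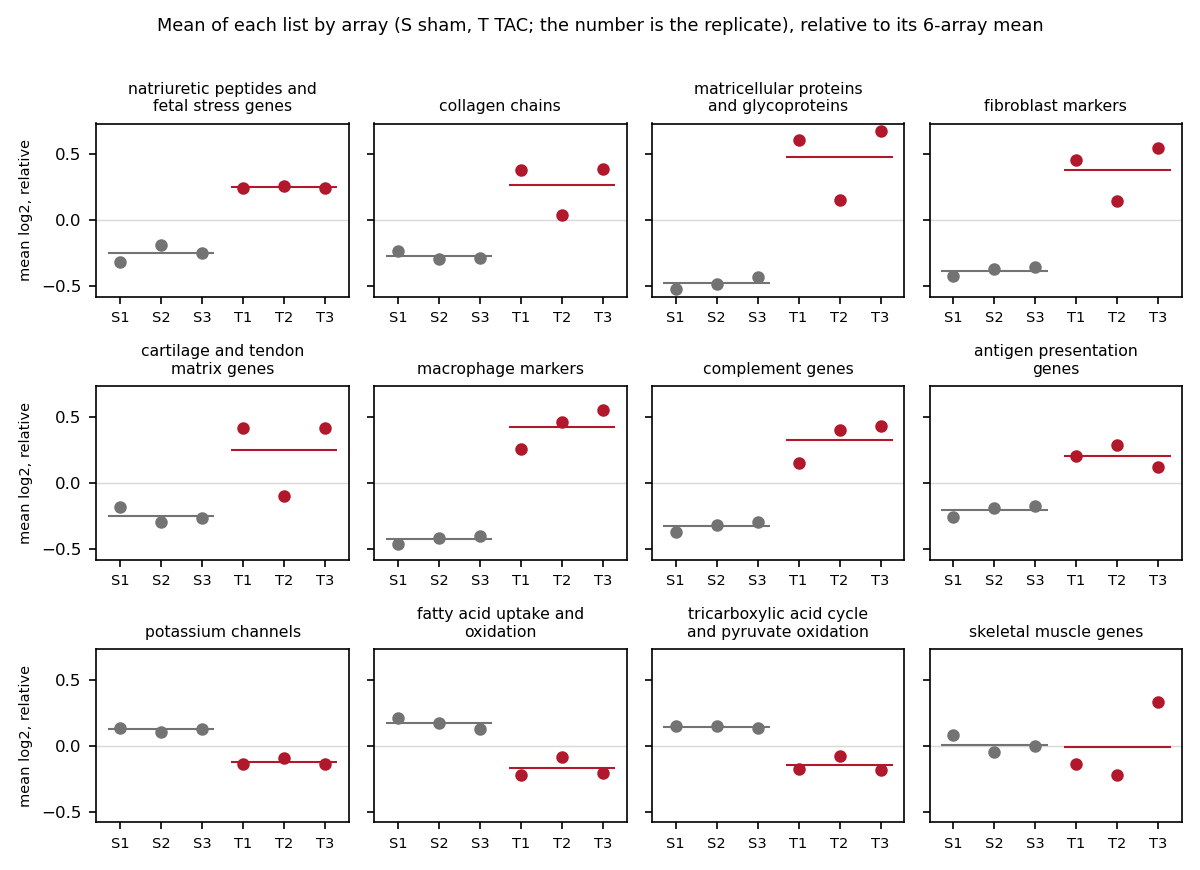
Mean log2 level of 12 gene lists in each day 28 array, relative to the list's mean over the 6 arrays, with sham replicates in grey (S1 to S3), TAC replicates in red (T1 to T3) and lines at the group means. T2 is low among the TAC arrays for collagen, matricellular, fibroblast and cartilage lists (-0.10 in the last) and not for macrophage, complement or stress lists, and T3 stands out in skeletal muscle genes at 0.33.

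Day 28 was also set against the earlier days of the same surgery, each with its own sham group. At day 11, 3097 genes were called (15.5%) and at day 3, 1506 (7.55%). Of the 1621 genes higher at day 28, 52% were also higher at day 11 and 24.7% at day 3, and these shared genes made up 54.2% of those higher at day 11 and 47.6% of those higher at day 3. Of the 1392 lower genes, 52.7% were also lower at day 11 and 24.1% at day 3, which is 47.5% and 50.6% of the genes lower at those days. A gene missing from an earlier list is not shown to differ between days, so the difference of the TAC effects was tested itself. It was called for 29 genes between days 28 and 11 (0.145% of genes) and for 319 between days 28 and 3 (1.6%), of which 205 had a higher effect at day 28 (1.03%) and 114 a lower effect (0.572%). Without TAC replicate 3 of day 28 these counts were 6 and 95, without TAC replicate 1 they were 8 and 192, without sham replicate 1 they were 10 and 148, and without sham replicate 2 they were 5 and 120. Without sham replicate 3 the day 11 count was 18 and without TAC replicate 2 it was 86.

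Matrix and secreted genes were among those with a higher effect at day 28 than at day 3. The TAC effect on Itgbl1, an integrin-like secreted protein, was 0.13 at day 3, 1.68 at day 11 and 2.06 at day 28, and that on Mmp2 was -0.07, 1.22 and 1.35. For Pi16 it was 0.08, 0.97 and 1.44, and for the complement inhibitor Serping1 -0.08, 0.33 and 1.08. In all 4 genes the day 28 effect was above the day 3 effect (limma adjusted p = 0.00208, 0.00225, 0.000537 and 0.00122 for the difference). Of 21 complement genes 8 had a higher effect at day 28 than at day 3 and 0 a lower one, and of 24 fibroblast markers 6 and 0, against 1.03% and 0.572% of all genes. Of the antigen presentation list 4 of 16 were higher and 0 lower, and of matricellular genes 7 were higher and 1, Tnc, lower. Tnc fell off from an effect of 3.43 at day 3 to 1.92 at day 11 and 0.78 at day 28 (limma adjusted p = 0.0113 for day 28 against day 3).

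**Figure D4:**
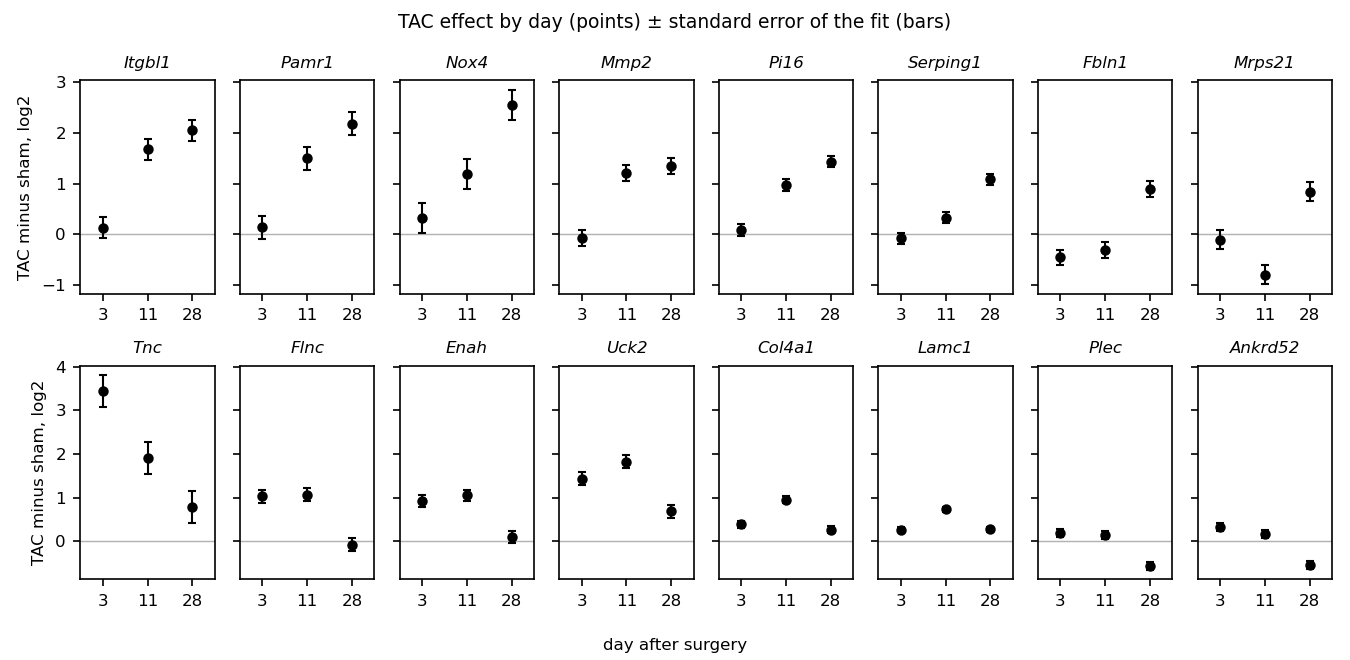
TAC minus sham on the log2 scale at days 3, 11 and 28 for 16 genes whose effect at day 28 differed from day 11 or day 3, with points for the estimate and bars for its standard error. The upper row holds genes with a higher effect at day 28, such as Itgbl1 at 0.13, 1.68 and 2.06, and the lower row genes with a lower one, such as Tnc at 3.43, 1.92 and 0.78.

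Between days 11 and 28 the effect was lower at day 28 for genes that included basement membrane chains and cytoskeletal proteins. The effect on Col4a1, a chain of the collagen network under cells, was 0.95 at day 11 and 0.26 at day 28, that on Lamc1, a laminin chain of the same sheet, 0.73 and 0.28, and that on Col4a2 0.90 and 0.18. Filamin C (Flnc), an actin cross-linker of the Z-disc, went from 1.06 to -0.07 and the nucleotide kinase gene Uck2 from 1.83 to 0.69. Plec, a cytoskeletal linker, was at 9.12, 9.18 and 9.16 in sham and 8.68, 8.72 and 8.39 after TAC at day 28 (-0.56 ± 0.09, against 0.15 at day 11). Fbln1, a fibulin of the matrix, had a higher effect at day 28, with values of -0.46 at day 3, -0.31 at day 11 and 0.90 at day 28. Mrps21, of the mitochondrial ribosome, was at 10.93, 10.91 and 11.20 against 11.84, 11.82 and 11.92 at day 28 (0.84 ± 0.18), after a day 11 effect of -0.80, and the methyltransferase cofactor gene Trmt112 went from -0.46 to 0.46. Of the other probe sets of Trmt112 at day 28, one was at 0.46 and one at -0.07, and a second probe set of Uck2 was at 0.24. Of these, Mrps21 and Trmt112 kept their call for the day 11 difference when any of the 6 arrays was left out. The difference for Col4a1 was lost when sham replicate 2 was left out, and Lamc1, Col4a2, Flnc, Uck2, Plec and Fbln1 each lost it in at least 2 of the 6 cases.

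The counts of called list members differed between the days. Of all genes, 4.22% were called higher at day 3, 7.8% at day 11 and 8.13% at day 28, and 3.33%, 7.73% and 6.98% lower. Of the 29 fetal stress genes 24 were called higher at day 3, 21 at day 11 and 11 at day 28, with medians of 0.81, 0.79 and 0.29, although Nppa had effects of 1.44, 1.82 and 1.69 and Myh7 of 1.94, 1.81 and 1.87. Of 43 proliferation genes 23, 26 and 7 were called higher. Of 35 macrophage markers 10, 20 and 25 were called higher, and of 26 proteoglycan genes 6, 9 and 14. Of 33 tricarboxylic acid cycle genes 11, 21 and 26 fell, whereas the 37 fatty acid genes had 24, 31 and 24. The difference between days 28 and 3 was called for 2 of the fetal stress genes, 0 of the proliferation genes and 4 of the macrophage markers, so the changes of count are not tests of the lists. The unfolded protein response list had 8 of 25 genes higher at day 3, 10 lower with 2 higher at day 11, and 5 lower with 2 higher at day 28. The 5 were 3 without TAC replicate 1 or sham replicate 2 and 2 without sham replicate 1. Hspa5, its central chaperone, was at 12.13, 12.09 and 11.84 in sham and 11.57, 11.66 and 11.62 after TAC at day 28 (-0.40 ± 0.08).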

How the data were processed

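RNA of mouse heart tissue was measured on 27 Affymetrix gene arrays, and the 6 vehicle arrays of day 28 are compared here. The authors deposited a table of log2 values, 1 for each of 34760 probe sets and each array. The submitters' processing notes name limma without a version, and the background correction and normalization are not given in the sources used here. Depth has no meaning for arrays, and the number of arrays limits the precision.

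Of the probe sets 21640 name 1 gene in the platform annotation, 1321 several and 11799 none. Each of 19937 genes was represented by its brightest probe set on average over all arrays. A linear model with 9 group means was run in limma 3.58.1 under R 4.3.3 (lmFit and eBayes, 18 residual and 4.9 prior degrees of freedom), and p-values were adjusted by Benjamini-Hochberg over all genes, with calls at an adjusted p under 0.05. The procedure was tested on simulated data.

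The comparison, the 54 gene lists (1390 of 1530 names measured) and the tests were chosen with earlier results of these data known, and several lists share genes. List counts are read beside those of all genes, with no test of a list. Named genes are the 12 largest differences per direction among genes whose groups do not overlap, at most 4 genes of a list, taken by p, a fixed set, the 8 smallest p per direction of each contrast between days, and list members named for their role. Beyond this rule 59 genes, mostly list members such as Comp, Fn1, Csf1r, Timd4, Kcnd2 and Acadvl, were added after their values were seen, and of these Tnc, C1s1, Dcn and Enah were also added to the contrasts between days. Some of the 59 are named by the rule as well. The same replicate number in both groups had correlations of deviations of 0.307, 0.131 and 0.0918, all positive. The main fit did not pair arrays by these numbers, and counts with the replicate number as a block are given at the end. Alternatives were another normalization, centring, filter, probe set rule, prior, array weights, fewer arrays, a replicate block and leaving out each array.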

Additional observations from a re-analysis of the deposited data

Results flagged for a closer look

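The TAC effect at day 28 differed from that at day 11 for 29 genes and from that at day 3 for 319, by the test of the difference itself in limma after Benjamini-Hochberg adjustment. On the log2 scale, the effect at day 28 minus that at day 11 was positive for Trmt112 (0.92), Snord57 (1.51), Cuta (0.69), Mrps21 (1.64), Atp6v0e2 (0.60), Wdr83os (1.27), Fbln1 (1.20) and Adam4 (1.23). It was negative for Col4a1 (-0.68), Plec (-0.71), Lamc1 (-0.45), Slc12a2 (-0.55), Col4a2 (-0.72), Flnc (-1.13), Ankrd52 (-0.70), Uck2 (-1.14) and Enah (-0.95). Only Trmt112, Snord57, Cuta and Mrps21 kept this call when any of the 6 arrays of day 28 was left out. Atp6v0e2 and Col4a1 kept it in 5 of these 6 cases, Plec in 4 and Lamc1 in 3. Wdr83os, Fbln1, Adam4, Slc12a2 and Col4a2 kept it in 2, and Flnc, Ankrd52, Uck2 and Enah in 1.

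The effect at day 28 minus that at day 3 was positive for Cilp (1.56), Nox4 (2.24), Mfap5 (1.18), Mfap4 (1.64), Pamr1 (2.04), Itgbl1 (1.93), Trmt112 (0.55), Snord57 (1.20), Atp6v0e2 (0.42), Fbln1 (1.35), Pi16 (1.36), Htra4 (1.48), Timp2 (0.76), Serping1 (1.17), Igfbp6 (1.44), Lbp (1.39), Mmp2 (1.42), C1s1 (1.11) and Dcn (0.53). It was negative for Plec (-0.76), Flnc (-1.11), Ankrd52 (-0.85), Speg (-0.90), Slk (-0.56), Raph1 (-0.85), Nfic (-0.70), Tbc1d16 (-0.72), Kif1c (-0.50), Tnc (-2.65) and Enah (-0.82). With 1 of the 6 arrays of day 28 left out, Cilp, Atp6v0e2 and Enah kept the day 3 call in 1 of 6 cases. Mfap5 and Trmt112 kept it in 2, C1s1 in 3 and the other genes named here in all 6. The groups of each day are separate arrays. The labels do not say whether arrays of different days were processed together, and its part in these differences was not tested.

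Probe sets left out of the gene comparison also carried signal. Of 1321 probe sets that name several genes 160 were called at day 28 (12.1%), 139 higher and 21 lower, and of 11799 with no gene in the annotation 228 were called (1.93%), 133 higher and 95 lower.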

How the results depend on the processing

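The day 28 count of 3013 lay between 1794 and 2817 when 1 array was left out, with 1003 to 1477 genes higher and 791 to 1340 lower, and TAC replicate 3 gave the lowest of each. Array weights gave 4279 genes in place of 3013, with 2165 higher and 2114 lower (1392 lower in the main fit). Only the 9 arrays of day 28 gave 2310. Of 257 named genes called at day 28, 229 kept the call without any 1 of the 6 arrays and 28 lost it without at least 1. Among named genes not called, array weights called Tgfb1, Lyve1, Cd163, Npr3 and Pln, and fitting only the 6 arrays called Ccl2. The contrast with day 11 was the least stable. Its 29 genes became 58 after quantile normalization, 9 with arrays centred on their median, 13 with arrays centred on the median of the genes tested (chosen after seeing the data), 103 without the dimmest genes, 91 with the trend and robust options and 609 with array weights, and 5 to 86 when 1 array was left out. The 319 genes of the contrast with day 3 became 558 without the dimmest genes, 1312 with array weights and 95 to 451 when 1 array was left out. The cause of these shifts was not tested. With the replicate number as a block, the counts were 2886, 22 and 289. Each sham array correlated best with its own number, but for sham replicate 3 the margin was small. Its correlation was 0.0918 with TAC replicate 3 and 0.0584 with TAC replicate 2. The labels do not give a pairing.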
